A study of Homo sapiens with 5 samples.

Results

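Replication-dependent histone genes encode the core histones H2A, H2B, H3 and H4 and the linker histone H1 that package new DNA. The genes described here were all protein-coding genes whose names begin with HIST1H, HIST2H, HIST3H or HIST4H, with estimated counts summed over the transcripts of each gene. This gave 71 genes of 35453 gene names. Of these, 26 reached at least 20 scaled counts (estimated counts brought to a common library size with edgeR's TMM factors) in any of 5 libraries and were kept for ratios. The kept genes were 1 of 6 H1, 5 of 17 H2A, 9 of 18 H2B, 4 of 15 H3 and 7 of 15 H4 genes. Just inside the minimum lay HIST1H4E, with 21.0 in its highest library, and HIST3H2BB, with 22.7, and just outside it HIST2H2AC, with 16.7, and HIST1H2AE, with 11.5.

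RNA came from KGN, an established human line from a granulosa cell tumour, and the series asks which signalling pathways act in these cells. All groups, the control included, received 100 nmol/L androstenedione, the substrate of aromatase, and charcoal-stripped DMEM/F12, and treatment lasted 24 h. The control received ethanol, the vehicle, per the protocol, although its title speaks of no treatment. The treatments were follicle-stimulating hormone (FSH) at 100 ng/mL, forskolin (FSK, an activator of adenylate cyclase), SC79 at 4 µg/mL, which activates protein kinase B (AKT), and PMA, a phorbol ester that activates protein kinase C. The treatment labels give 10 mmol/L for FSK and 0.1 mmol/L for PMA, while the protocol text gives 10 and 0.1 with a symbol that stands for µmol/L. Each group is 1 library from 270 ng of RNA that pooled 90 ng from each of 3 cultures of 3 weeks, so no difference below has a replicate check and no test between groups was possible. FOXL2, the transcription factor that marks granulosa cells, had 5458 to 10392 scaled counts, FSHR, the FSH receptor, had 36.6 to 132, and WT1, another listed granulosa marker, had at most 1.06.

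Most mRNAs end in a poly(A) tail. Replication-dependent histone mRNAs are the known exception in dividing cells: they are unspliced and end just after a short stem-loop, which the stem-loop binding protein SLBP holds and which ties their making and decay to DNA synthesis. A number of these genes can also give a longer or spliced mRNA that runs past the stem-loop to an ordinary polyadenylation signal, a form described in differentiated and non-dividing cells. The libraries were made from poly(A)-selected RNA, which keeps RNAs with a tail. How many stem-loop-ended RNAs were carried over was not measured.

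The stem-loop was looked for in the GENCODE release 29 models of all 100 member transcripts. It was present in a model of 32 genes, 22 of them kept. The most frequent of the 6 versions, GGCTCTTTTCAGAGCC, stood in 17 genes. The stem-loops of abundant members show how little the signal varies, with its 16 bases in capitals and the bases that follow in lower case.
HIST1H2AC-202: GGCTCTTTTCAGAGCCcccctaccgtttca
HIST3H2A-201: GGCTCTTTTCAGAGCCacctactatctcga
HIST2H2AA4-201: GGCTCTTTTCAGAGCCacccacgttttcaa
HIST2H2BE-201: GGCTCTTTTCAGAGCCacccacctaatcac
HIST1H2BD-202: GGCTCTTTTAAGAGCCacgcatgttttcaa
HIST1H3E-202: GGCTCTTCTCAGAGCCaaccactttgtccg
HIST1H4I-201: GGCCCTTTTTAGGGCCcctaagctttcaac

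Except for HIST1H4I, whose single model has no such signal near its end, these genes have models with a polyadenylation signal, AATAAA or its variant ATTAAA, shown in capitals in the last 30 bases. These are the ends that a poly(A)-selected library can capture.
HIST1H2AC-201: tAATAAAaggtaatgcaaagggagaggaaa
HIST1H2AC-202: agcctggcatgaggtAATAAAaggtaatgc
HIST3H2A-201: tctgatATTAAAagtatttatgatctctaa
HIST2H2AA4-201: cgttttcaAATAAAagagttgttaatgctg
HIST2H2BE-201: gttattAATAAAgttaccaattaatttaaa
HIST1H2BD-201: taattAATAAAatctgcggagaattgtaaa
HIST1H3E-202: agatgtaaAATAAAagattactgaacagaa
The distance from the stem-loop to the end of the model differed widely among them. The HIST2H2AA4 model ran 35 bases past it, the HIST3H2A model 390, HIST1H2AC-202 1114, HIST2H2BE 1729 and HIST1H3E-202 1862. HIST1H2BD-201 is spliced and lacks the stem-loop, which only the other model of that gene, HIST1H2BD-202, contains.

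The libraries held 50218950 to 58811821 estimated counts. Histone members made up a very small share of them: 0.00376% in control, 0.00433% in the FSH library, 0.00907% in the FSK library, 0.00409% in the SC79 library and 0.00962% in the PMA library. Summed over all 71 genes, this was 2031 scaled counts in control, 2314 with FSH, 4962 with FSK, 2174 with SC79 and 4966 with PMA. The FSK and PMA libraries thus stood apart from the other 3. The sum was 2.44-fold the control with FSK [2.32 to 2.57] and 2.45-fold with PMA [2.33 to 2.57], against 1.14-fold with FSH [1.07 to 1.21] and 1.07-fold with SC79 [1.01 to 1.14]. Bracketed ranges are exact 95% intervals of counting error only, which leave out the spread between cultures and errors in assigning reads. All 4 ratios share the control library. Summed by class, H1 was 2.17-fold the control with FSK [1.86 to 2.53] and 3.63-fold with PMA [3.16 to 4.199]. H3 had the opposite order, 2.68-fold with FSK [2.36 to 3.03] and 1.65-fold with PMA [1.44 to 1.89]. H2A and H2B lay between 2.56 and 2.70-fold with both agents, and H4 was lower, at 1.75-fold with FSK [1.54 to 1.9998] and 1.92-fold with PMA [1.69 to 2.18]. In pooled bulk RNA, a larger share of cells with a transcript and more of it per cell cannot be told apart, and in poly(A)-selected RNA neither can more histone mRNA and a larger polyadenylated share of it.

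**Figure D1:**
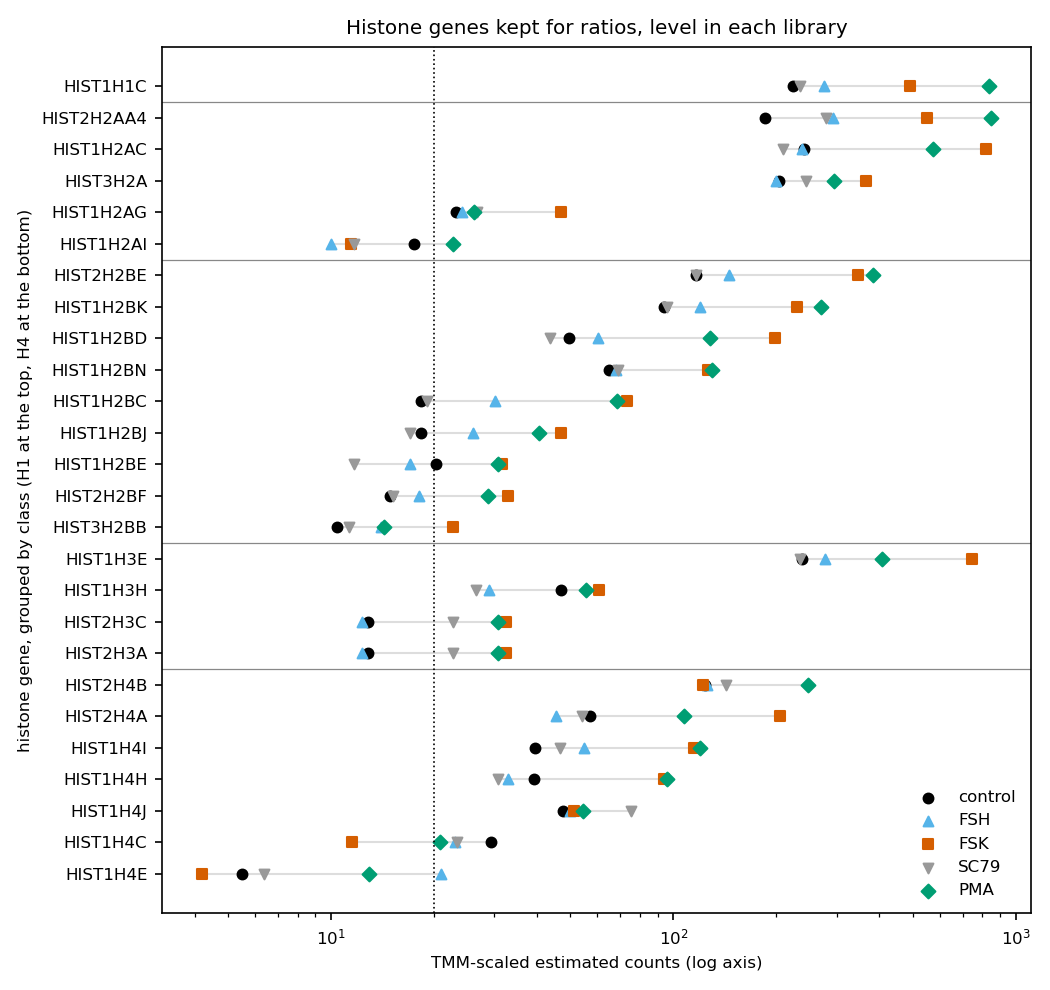
Scaled counts of the 26 kept histone genes (rows, by class) in each of the 5 libraries, on a log axis, with 1 symbol per library and a dotted line at 20. The FSK squares and PMA diamonds lie to the right of the other symbols in most rows. Exceptions include HIST1H4C, HIST1H4E, HIST1H4J, HIST2H4B, HIST1H2AI and HIST1H2AG.

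Levels were compared between genes per kilobase of transcript model. In control the highest were HIST1H1C, a linker histone, at 348 scaled counts per kilobase, HIST2H2AA4 at 328, HIST1H2BK at 247 and HIST3H2A at 228. For scale, H3F3B, which encodes the replication-independent variant H3.3 and is polyadenylated in the usual way, had 24776 per kilobase. H2AFZ, the gene of the variant H2A.Z, had 8226 per kilobase. Both were far above every histone member in the same library, while other variant genes were not: CENPA had 517 and H2AFJ 50.3 per kilobase. The models of HIST1H1C and HIST1H2BK hold the coding sequence only, so reads from beyond it cannot be assigned to these genes.

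FSK raises cAMP and so activates protein kinase A. Of the 26 kept members, 22 had a log2 ratio above 0 against control and 4 below, and for 19 the counting interval lay above 1. Of the 24 members with 20 scaled counts in either library, 16 exceeded control by 2-fold or more and 1 was below it by as much. Among all genes with that level these shares were 5.18% and 6.04%. The median log2 ratio of the kept members was 1.19, where that of all genes was 0.01. Because a member could enter through a high FSK or PMA library alone, the 18 members with 20 scaled counts in the control itself were also counted, a choice made after the values were seen. Of these, 10 were at least 2-fold higher and 1 lower, against 3.89% and 6.2% of all genes at that control level.

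Among H2A genes, HIST1H2AC (chromosome 6, 26124145 to 26139116, GRCh38) had 241 scaled counts in control, 238 with FSH, 819 with FSK, 209 with SC79 and 574 with PMA. It was 3.39-fold higher with FSK [2.95 to 3.92] and is one of the H2A genes known to form polyadenylated mRNA. HIST2H2AA4 (chromosome 1, 149851061 to 149851624) had 185, 293, 552, 280 and 849 in the same order, or 2.98-fold with FSK [2.53 to 3.52]. Only 2.81% of its 31-base words are its own, and its copy HIST2H2AA3 was assigned at most 0.164 scaled counts, so the value stands for the pair. HIST3H2A (chromosome 1, 228456979 to 228457873) had 204 in control and 365 with FSK, 1.79-fold [1.51 to 2.13]. HIST1H2AG lay at 23.2 in control and 47.0 with FSK, just under the 2-fold rule on the log2 scale with a pseudocount of 1, and HIST1H2AI at 17.4 and 11.4 with an interval of 0.28 to 1.46. The 3 abundant H2A genes were thus all above control, by unequal amounts.

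Among H2B genes all 9 kept members were above control with FSK and 7 were past 2-fold, where 5.18% of all genes were. The class sum went from 417 scaled counts in control to 1125 with FSK and 1111 with PMA. HIST2H2BE (chromosome 1, 149884459 to 149886652), known for its polyadenylated form in non-dividing cells, had 116 scaled counts in control, 146 with FSH, 345 with FSK, 116 with SC79 and 384 with PMA. HIST1H2BK had 94.0, 120, 230, 95.8 and 270 in the same order, with 13.7% own sequence. HIST1H2BD (chromosome 6, 26158146 to 26171349) had 49.6, 60.1, 198, 43.5 and 128. Its log2 ratio with FSK, 1.97, was the highest among the kept members, a fold of 3.99 [2.93 to 5.50]. HIST1H2BC followed at 3.99-fold [2.40 to 6.92] from 18.4 counts in control, and HIST1H2BJ was 2.57-fold higher [1.48 to 4.58], also from 18.4. HIST1H2BN was 1.95-fold higher, at 64.6 in control and 126 with FSK. HIST2H2BF and HIST3H2BB passed 2-fold from 14.8 and 10.4 counts, with lower limits of 1.17 and 1.06. HIST3H2BB reached the minimum with FSK alone and HIST2H2BF with FSK and PMA alone. Their place among the 9 and the 7 thus rests on the libraries that let them in.

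Of the H3 genes, HIST1H3E (chromosome 6, 26224199 to 26227473) had 237 scaled counts in control, 277 with FSH, 744 with FSK, 235 with SC79 and 407 with PMA. The FSK library stood highest, 3.13-fold above control [2.71 to 3.62]. HIST1H3H, at 46.8 and 60.7, had an interval of 0.87 to 1.93. HIST2H3A and HIST2H3C share every 31-base word, so their equal values, 12.9 in control and 32.4 with FSK for each, are a split of 1 quantity. Their sum was 2.52-fold higher with FSK [1.59 to 4.09].

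H4 genes were mixed. HIST1H4I (chromosome 6, 27138588 to 27139881) had 39.5 scaled counts in control, 54.97 with FSH, 115 with FSK, 46.6 with SC79 and 120 with PMA. It was 2.91-fold higher with FSK [2.03 to 4.25]. HIST1H4H had 39.1, 33.0, 94.1, 30.7 and 95.7 in the same order, 2.41-fold higher with FSK [1.64 to 3.51]. HIST2H4A went from 57.0 to 205 and HIST2H4B from 124 to 122, but these near-identical copies have 1.44% and 2.79% own words. Summed, they had 181 in control and 327 with FSK, 1.81-fold [1.51 to 2.17]. HIST1H4J had 47.7 and 51.3. HIST2H4B, HIST1H4E and HIST1H4C were below control with FSK, and only for HIST1H4C did the interval lie below 1. HIST1H4C had 29.4 in control, 23.0 with FSH, 11.5 with FSK, 23.3 with SC79 and 20.8 with PMA, or 0.39-fold with FSK [0.18 to 0.80]. Its single GENCODE model ends before any stem-loop and has no polyadenylation signal near its end. The linker histone gene HIST1H1C (chromosome 6, 26055787 to 26056428) was 2.20-fold higher with FSK [1.88 to 2.58].

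**Figure D2:**
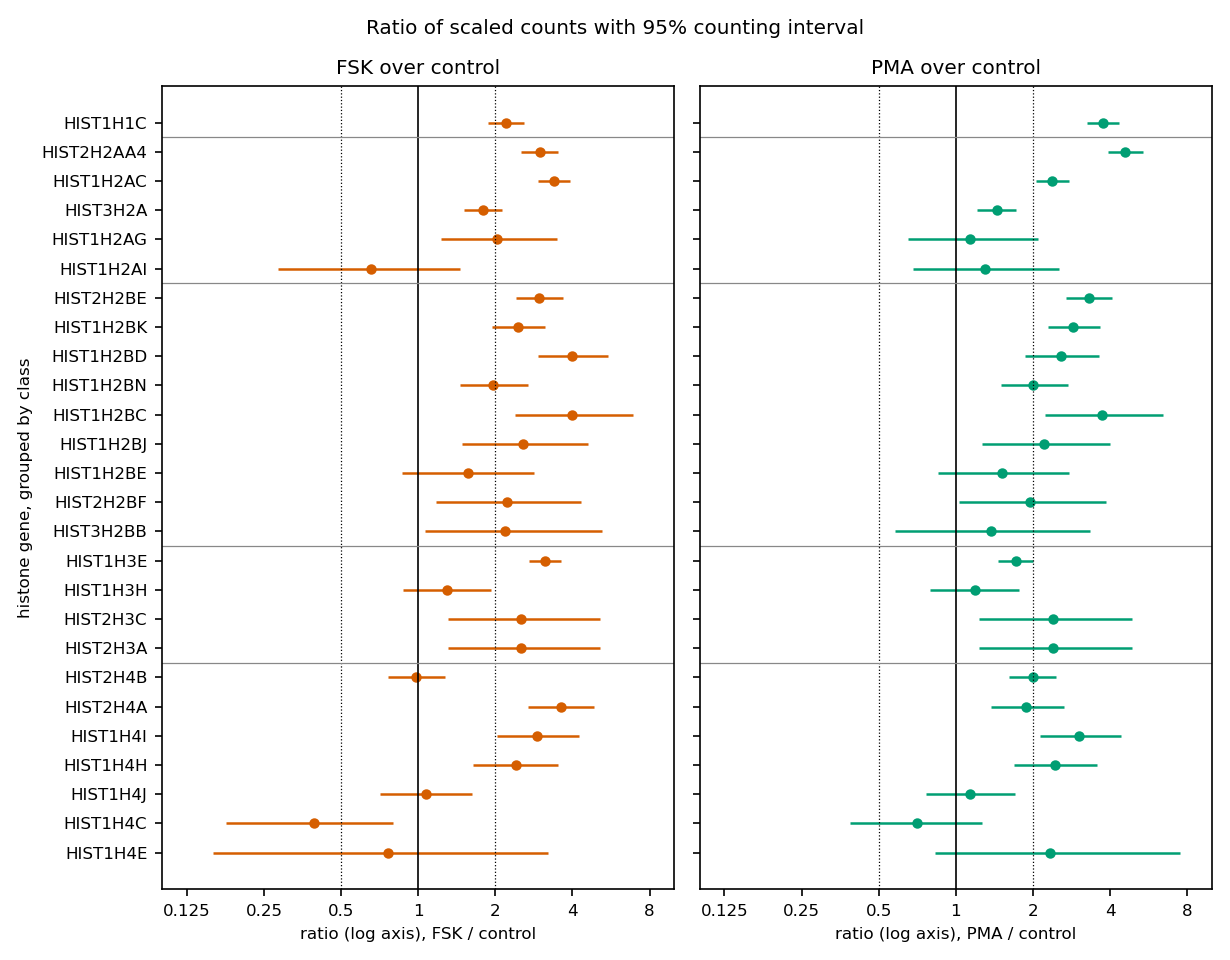
Ratio of scaled counts to control for each kept histone gene with FSK (left) and PMA (right), on log axes, with points for the ratio and bars for the exact 95% interval of counting error; the solid line marks 1 and the dotted lines 0.5 and 2. With FSK 19 intervals lie above 1 and that of HIST1H4C below, and with PMA 18 lie above.

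PMA activates protein kinase C. With PMA 25 of the 26 kept members were above control, 18 with an interval above 1, and the median log2 ratio was 1.04 where that of all genes was -0.00. Of 24 members compared, 12 were higher by 2-fold or more and 0 lower, against 4.83% and 4.65% of all genes. Of the 18 members with 20 scaled counts in control, 8 were higher by that rule and 0 lower, against 3.26% and 4.79% of all genes at that control level. HIST2H2AA4 had the largest ratio, 4.58-fold [3.92 to 5.36]. HIST1H1C followed, with 223 scaled counts in control, 275 with FSH, 491 with FSK, 234 with SC79 and 834 with PMA, 3.74-fold above control [3.24 to 4.33]. HIST2H2BE was 3.30-fold higher [2.69 to 4.06], HIST1H2BC 3.72-fold [2.23 to 6.46], HIST1H4I 3.03-fold [2.13 to 4.40] and HIST1H2BK 2.87-fold [2.29 to 3.66]. HIST1H2AC, HIST1H2BD, HIST1H2BJ, HIST1H4H, HIST2H3A and HIST2H3C were the other 6 past 2-fold, between 2.21 and 2.57. Among members with at least 100 scaled counts the lowest ratios were those of 3 genes: HIST3H2A was 1.44-fold higher [1.21 to 1.72], HIST1H3E 1.71-fold [1.46 to 2.01] and HIST2H4A 1.88-fold [1.38 to 2.63]. HIST1H2BN, with 64.6 in control and 129 with PMA, lay just under the 2-fold rule at a log2 ratio of 0.99.

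The PMA and FSK libraries had nearly the same histone sum, a ratio of 1.00 [0.96 to 1.04], and were made up differently. Comparing them directly, 1 of 25 members was past 2-fold in favour of PMA and 0 in favour of FSK, against 6.84% and 6.15% of all genes, and the median log2 ratio was -0.06. The 1 member was HIST2H4B, whose reads cannot be told from those of HIST2H4A. The sum of this pair was 1.08-fold [0.93 to 1.26]. Single genes differed in both directions. PMA exceeded FSK for HIST1H1C, 1.70-fold [1.52 to 1.91], and HIST2H2AA4, 1.54-fold [1.38 to 1.72]. FSK exceeded PMA for HIST1H3E, with a PMA over FSK ratio of 0.55 [0.48 to 0.62], HIST1H2BD at 0.65 [0.51 to 0.81], HIST1H2AC at 0.70 [0.63 to 0.78], HIST3H2A at 0.81 [0.69 to 0.94] and HIST1H2AG at 0.56 [0.34 to 0.94]. For HIST2H2BE, HIST1H2BK, HIST1H4I and HIST1H4H the interval held 1. By class, H3 was lower with PMA than with FSK, 0.62-fold [0.55 to 0.69], H2A was at 0.98 [0.92 to 1.05] and H2B at 0.99 [0.91 to 1.07].

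**Figure D3:**
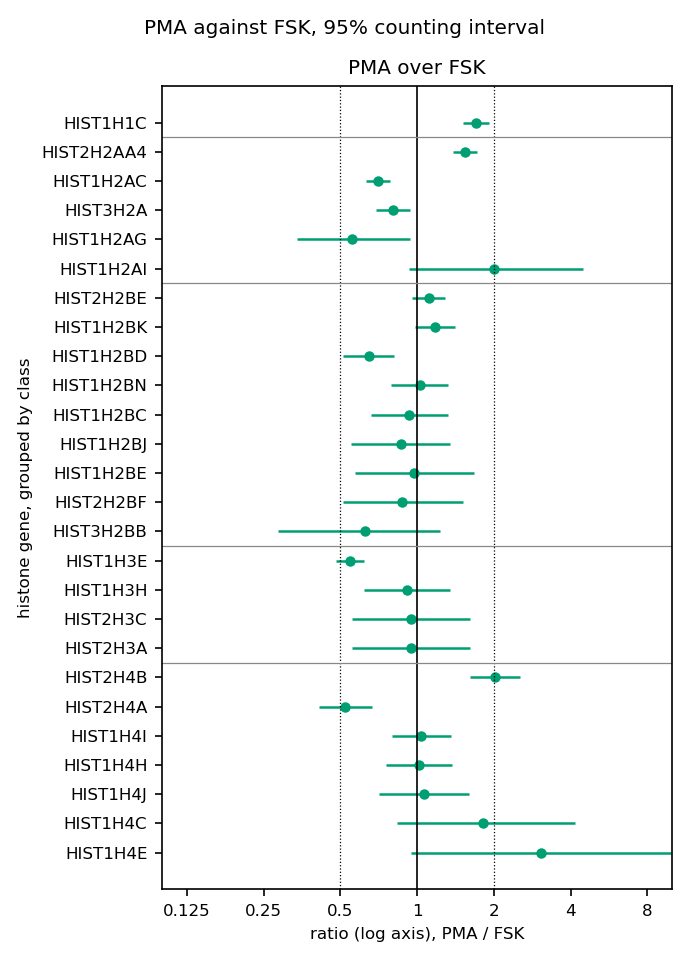
Ratio of scaled counts with PMA to those with FSK for each kept histone gene, on a log axis, with exact 95% intervals of counting error. HIST1H1C and HIST2H2AA4 lie above 1 and HIST1H3E, HIST1H2BD and HIST1H2AC below, while the near-identical copies HIST2H4A and HIST2H4B lie on opposite sides. The interval of HIST1H4E runs beyond the axis, to 12.9.

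FSH acts through its own receptor, which signals mainly through cAMP. Of 21 members compared with FSH, 1 was past 2-fold above control and 0 below, against 0.923% and 0.516% of all genes, and the median log2 ratio was 0.07. Of the members with 20 scaled counts in control, 0 were past 2-fold either way, against 0.339% and 0.525% of all genes. The 1 member, HIST1H4E, rested on few reads, with 5.51 scaled counts in control, 21.0 with FSH, 4.18 with FSK, 6.36 with SC79 and 12.9 with PMA. HIST1H4E reached 20 scaled counts in the FSH library alone, so its call above control was favoured by the minimum. Among members with at least 100 counts, the highest FSH ratios were HIST2H2AA4 at a log2 ratio of 0.66, HIST1H2BK at 0.35 and HIST2H2BE at 0.32. The lowest were HIST3H2A at -0.03, HIST1H2AC at -0.02 and HIST2H4B at 0.02. FSK against FSH, the 2 agents that act through cAMP, gave 11 of 25 members past 2-fold above FSH and 1 below, HIST1H4E, against 4.17% and 5.13% of all genes. Because HIST1H4E was kept through the FSH library alone, its lower value with FSK was built into its entry. The median log2 ratio of FSK against FSH was 0.92.

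With SC79 the log2 ratios of the kept members ran from -0.80 for HIST1H3H to 0.78 for HIST2H3A and HIST2H3C. HIST1H3H had 46.8 scaled counts in control and 26.5 with SC79, 0.57-fold [0.34 to 0.93], the 1 member with an interval below 1. Of 20 members compared, 0 were past 2-fold above it and 0 below, against 0.806% and 0.481% of all genes, with a median log2 ratio of 0.04. Of those with 20 scaled counts in control, again 0 were past 2-fold either way, against 0.249% and 0.491% of all genes. The highest among abundant members were HIST2H2AA4 at a log2 ratio of 0.59, HIST3H2A at 0.26 and HIST2H4B at 0.20, and the lowest HIST1H2AC at -0.21, HIST1H3E at -0.01 and HIST2H2BE at -0.00. HIST1H4J, with 75.2 scaled counts, was 1.58-fold above control with SC79 [1.09 to 2.30] and has 17.8% own words. Against FSH, 0 of 22 members were at least 2-fold higher with SC79 and 1 was lower, HIST1H4E, against 0.73% and 0.852% of all genes, with a median log2 ratio of -0.16. Because HIST1H4E was kept through the FSH library alone, its lower value with SC79 was built into its entry.

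The 8 members listed as known to form polyadenylated mRNA were HIST1H1C, HIST1H2AC, HIST1H2BC, HIST1H2BD, HIST1H2BJ, HIST1H2BK, HIST1H4H and HIST2H2BE. All 8 exceeded control by 2-fold or more with FSK and with PMA, where 5.18% and 4.83% of all genes did. Their median log2 ratios were 1.44 with FSK, 1.43 with PMA, 0.31 with FSH and -0.05 with SC79. The 8 members held 800.4 of the 2031 scaled counts in control. The list was drawn with earlier results of these data known and overlaps the abundant members, so its count describes these libraries only. The 45 members under the minimum, 9 of which had 0 counts in every library, summed to 77.8 in control, 91.7 with FSH, 96.9 with FSK, 84.2 with SC79 and 90.6 with PMA. Their sum with FSK was 1.24-fold the control, and its interval of 0.92 to 1.69 includes no difference. The minimum was applied to the highest library of each member, so a member that passed it with FSK or PMA alone was kept. The ratio of the others therefore cannot show whether low-count members differed less with FSK than the kept members.

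The form of the annotated transcripts differed between kept members and the rest. Of 26 genes with a model that runs at least 100 bases past the stem-loop or is spliced, 20 were kept. Of 8 genes whose models end near it, 3 were kept, and of 37 genes with only single-exon models that lack it, 3 were kept. HIST1H1C, HIST2H2AA4 and HIST1H2BK, the members with the highest control level per kilobase, are among the 6 kept genes without a long or spliced model. Longer models offer more positions to which reads can be assigned, and the part this plays was not tested. Transcripts with a polyadenylation signal near their end held 69.3% of member counts in control and 69.5% with FSH. They held 74.9% with FSK, 71.6% with SC79 and 67.9% with PMA. These shares describe annotated models and not RNA ends. HIST1H1C and HIST1H2BK, whose models hold the coding sequence only, count as without a signal. HIST1H4J counts as with a signal, although it lies before the stem-loop.

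**Figure D4:**
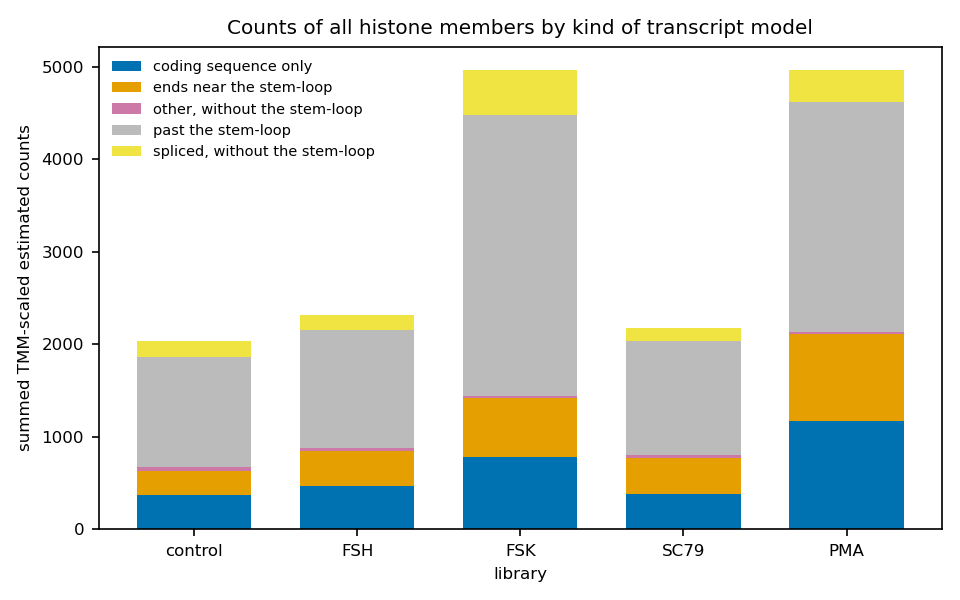
Summed scaled counts of all histone members in each library, stacked by the kind of transcript model the counts were assigned to. Models that run past the stem-loop hold 58.7% of the counts in control, 61.1% with FSK and 49.97% with PMA. The kinds are those of the annotated models and do not show where an RNA ends. HIST2H2AA4, whose model ends near the stem-loop, had 185 in control and 849 with PMA. HIST1H1C, whose model holds the coding sequence only, had 223 and 834.

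A few genes have both long and short models. HIST1H3E had at least 98.1% of its counts on the model that runs past the stem-loop in every library, and HIST1H2BN and HIST1H2BE had 100%. HIST1H2BJ had 81.8% on its long models in control, 61.4% with FSH, 97.8% with FSK, 55.6% with SC79 and 63.6% with PMA, on 17.0 to 47.1 scaled counts in all. HIST1H2BD had 100% on the spliced model in control, FSK and PMA, 73.4% with FSH and 91.1% with SC79. For HIST1H2AC the counts were divided differently between 2 long models that differ by 14 bases at the 3′ end. HIST1H2AC-201, the longer, was assigned 2.1e-06 scaled counts in control, 0.00039 with FSH and 0.0021 with SC79, but 108 with FSK and 309 with PMA. Against a floor of 3 counts in the control library this is 39.1-fold higher with FSK and 112-fold with PMA. These folds are not lower bounds, because reads from the sequence the 2 models share can be assigned to either. HIST1H2AC-202 had 191 in control, 209 with FSH, 614 with FSK, 188 with SC79 and 216 with PMA. Together these 2 models had 191, 209, 722, 188 and 525, or 3.79-fold the control with FSK and 2.76-fold with PMA. The split between them rests on the few reads that reach the last bases, and how far the counting program divided shared reads was not tested.

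Promoters were read from RefSeq (GRCh38.p14), 250 bases before to 50 after the start, for 66 of the 71 members and 27305 promoters in all, and motifs were searched on both strands with overlaps between motifs allowed. The TATA box TATAAA was in 44 members against 12.0% of all promoters, and CCAAT in 56 against 35.7%. The octamer ATTTGCAT, the known element of H2B promoters, was in 26 members, 14 of the 18 H2B and 11 of the 16 H2A, against 1.80% of all promoters. Windows of neighbouring genes on opposite strands can overlap, so 1 motif can count for both genes. HIST1H2AC and HIST1H2BC, both higher with FSK and PMA, start back to back on opposite strands and share 1 stretch of 245 bases between their starts, chr6:26123927-26124171, printed on the plus strand toward HIST1H2AC. Capitals mark these motifs on either strand.
HIST1H2BC to HIST1H2AC: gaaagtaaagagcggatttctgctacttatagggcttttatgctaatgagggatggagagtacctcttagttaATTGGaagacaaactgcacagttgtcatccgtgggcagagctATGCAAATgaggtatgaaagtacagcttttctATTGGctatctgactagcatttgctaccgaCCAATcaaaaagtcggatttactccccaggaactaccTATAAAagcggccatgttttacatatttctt
The stretch holds 1 TATAAA, 3 CCAAT boxes in all and 1 octamer. Among 12 such divergent pairs, HIST1H2BF stands with both HIST1H2AD and HIST1H3D. The latter have the same promoter window, so that stretch counts more than once. In 3 of the 12 pairs both genes were kept. In the second, HIST1H2AG and HIST1H2BJ had 23.2 and 18.4 scaled counts in control and 47.0 and 47.1 with FSK, and in the third, HIST3H2BB and HIST3H2A had 10.4 and 204 in control and 22.7 and 365 with FSK.

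The cAMP response element TGACGTCA, bound by the CREB family, was in 9 of 66 member promoters and in 5 of 25 kept ones, against 1.98% of all promoters. These promoters are not all separate: HIST2H3A and HIST2H3C are copies, and the windows of HIST1H2AJ and HIST1H2BM overlap. It is shown for the 5 kept genes, with the element in capitals, because FSK raises cAMP.
HIST1H2BK, chr6:27146939-27146968, minus strand: taactaacctcTGACGTCAccctaataacc
HIST1H4H, chr6:26285647-26285676, minus strand: ggagtcgttggTGACGTCAtccagggctgg
HIST1H4E, chr6:26204468-26204497, plus strand: ggagtcgttggTGACGTCAtcccagtctga
HIST2H3A, chr1:149852491-149852520, plus strand: tttaggacgggTGACGTCAcagccaatgga
HIST2H3C, chr1:149841292-149841321, minus strand: tttaggacgggTGACGTCAcagccaatgga
The element begins 99 to 131 bases before the start. Of these 5, HIST1H4E was not higher with FSK, at 5.51 in control and 4.18. HIST1H2AC, HIST1H2BD and HIST1H3E, with the larger FSK ratios, have no match in their windows. The AP-1 site TGANTCA was in 1 member promoter, of a gene under the minimum, against 7.76% of all promoters. A match is a string of letters and was not tested as a site.

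Other genes linked to histone supply had other values in the same libraries. Of 25 genes of S phase and DNA replication, 24 were below control by 2-fold or more in the FSK library, against 6.04% of all genes. Their median log2 ratio was -2.04. PCNA, the sliding clamp of DNA polymerase, was at -1.06, MCM10, a replication initiation factor, at -3.40, CCNE2, a cyclin of S phase entry, at -2.71, and POLA1, a polymerase subunit, at -0.99. With PMA 3 of the 25 were at least 2-fold lower, against 4.65% of all genes, and the median was -0.47, from TK1 at -1.42 to MCM5 at 0.31. With FSH the median was -0.13 and with SC79 -0.25, with 0 past 2-fold in each direction. Of all genes, 0.923% were higher and 0.516% lower with FSH, and 0.806% and 0.481% with SC79. The histone sum was thus about equally high in 2 libraries whose replication genes differed. Whether the 2 differences are related was not tested.

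**Figure D5:**
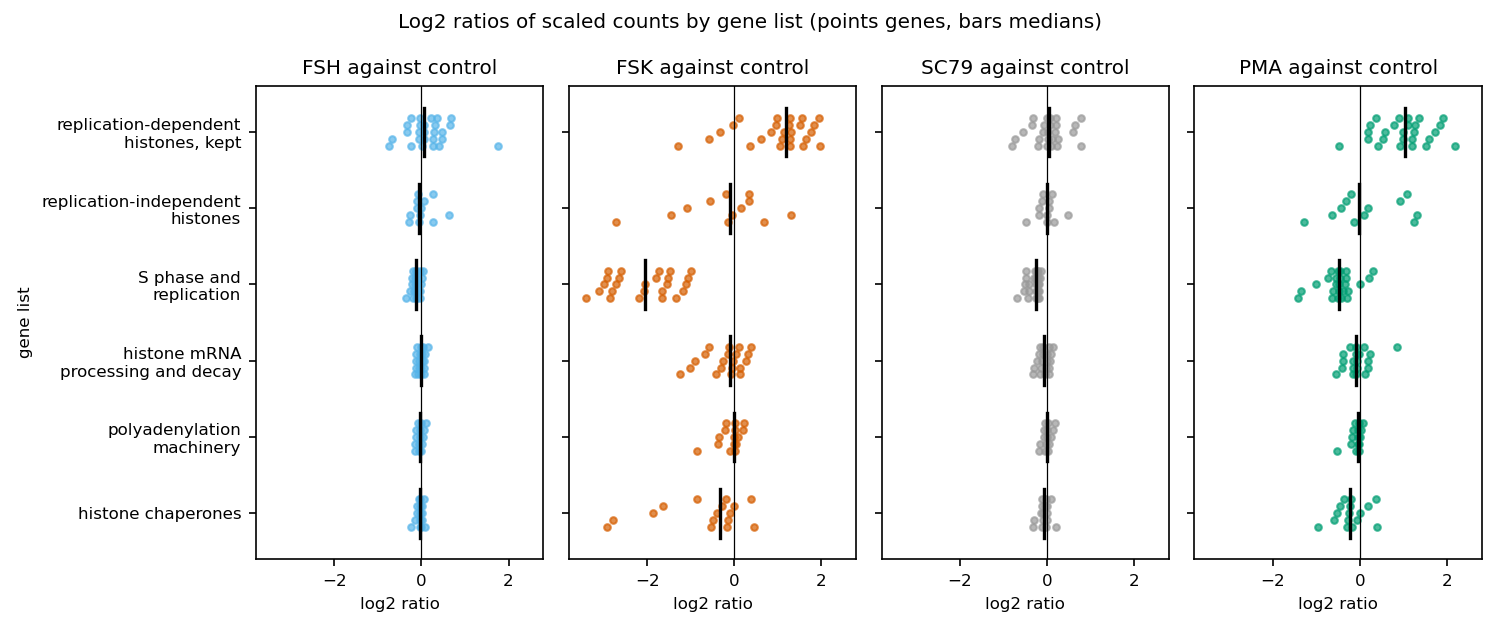
Log2 ratios to control of the kept replication-dependent histone genes and of 5 other gene lists, 1 panel per treatment on the same axis, with a point per gene and a bar at the median. With FSK the histone median is 1.19 and that of the S phase genes -2.04, and with PMA they are 1.04 and -0.47.

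The genes listed as replication-independent histones, most of which encode variant or replacement histones and make ordinary polyadenylated mRNA, had no common direction. With FSK 1 of 12 was at least 2-fold higher, where 5.18% of all genes were. This was the H2B gene H2BFS, at a log2 ratio of 1.31. How far its reads were shared with H2B members was not tested. At least 2-fold lower with FSK were 3, against 6.04% of all genes. These were CENPA, the centromere variant, at -2.72, H2AFX, the variant marked at DNA breaks, at -1.46 and H2AFZ at -1.08. With PMA 3 were at least 2-fold higher and 1 lower, against 4.83% and 4.65% of all genes. The higher were H1F0, a linker histone of non-dividing cells, at 1.09, H2AFJ at 1.25 and H2BFS at 1.31. The lower was CENPA, at -1.29. H3F3A was at 0.16 with FSK and -0.14 with PMA, and H3F3B at -0.04 and 0.19.

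Of 20 genes that make, process or degrade histone mRNA, 2 were at least 2-fold lower with FSK and 0 were higher, where 6.04% and 5.18% of all genes were. These were CDK2, the cyclin-dependent kinase of S phase, at -1.25 and ERI1, a nuclease that trims the histone stem-loop, at -1.03. SLBP had 3525 scaled counts in control, 3232 with FSH, 2215 with FSK, 2825 with SC79 and 3020 with PMA, a log2 ratio of -0.67 with FSK and -0.22 with PMA. With FSH the log2 ratio of SLBP was -0.12 and with SC79 -0.32, so it was below control in all 4 treated libraries. Its part in the histone counts was not tested. NPAT, the coactivator of histone transcription, was at -0.06 with either agent. With PMA 0 were past 2-fold, against 4.83% of all genes higher and 4.65% lower. ZCCHC6, which adds uridines to histone mRNA, was highest with PMA at 0.85. None of the 15 genes of the general polyadenylation machinery was past 2-fold in any treatment. Of all genes, at most 5.18% were higher and 6.04% lower, both with FSK. NUDT21, a subunit that guides the choice of poly(A) site, was lowest with FSK at -0.86 and with PMA at -0.53. Of 16 histone chaperones, 4 were at least 2-fold lower with FSK, led by ASF1B at -2.92, and 0 with PMA. Of all genes, 6.04% were lower with FSK and 4.65% with PMA.

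The authors' deposited table gives a log2 fold change and an adjusted p-value per transcript against control. Of the 100 member transcripts, the authors' deposited table has 1 with an adjusted p below 0.05 for FSK, 1 for PMA, 0 for FSH and 0 for SC79. Over all transcripts the shares with an adjusted p below 0.05 in the authors' deposited table are 2.20% for FSK, 2.17% for PMA, 1.80% for FSH and 1.84% for SC79, so the members' shares are no higher. For FSK and PMA that transcript is HIST1H2AC-201, with authors' log2 fold changes of 9.81 and 11.27 and adjusted p of 0.000735 and 0.000127 in the authors' deposited table. These values depend on how reads were divided between HIST1H2AC-201 and HIST1H2AC-202, which together were 3.79-fold the control with FSK and 2.76-fold with PMA. Over the 35 member transcripts with 20 scaled counts, the authors' deposited table has a median log2 fold change of 1.198 for FSK, 1.02 for PMA, 0.05 for FSH and 0.02 for SC79. How the authors estimated the spread with 1 library per group is not given in the sources used here.

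Markers of other cell types also differed between the libraries. PECAM1, an endothelial and platelet adhesion gene, had 109 scaled counts in control and 648 with PMA, and CD68, a lysosomal gene used as a macrophage marker, had 791 and 2178. CDH5, which defines endothelium, was at most 1.999 in any library, and PTPRC, which defines leukocytes, was at 37.6 to 53.9. CYP17A1 and INSL3, theca markers, were at most 13.6 and 4.27. The cultures were of KGN, an established line, so these markers are given as genes expressed in its cultures. Their relation to the histone counts was not tested.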

How the data were processed

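Poly(A)-selected RNA of 5 KGN libraries, 1 per group, was analysed from the tables the authors deposited. These hold estimated counts per transcript, per the file headers. The authors' deposited normalized signal equals the counts times 1 constant per library. A deposited comparison table gives each transcript's log2 fold change and its p-value, raw and adjusted. Per the submitters' processing notes the tools were Trimmomatic, kallisto and edgeR. Their versions, the genome build, the index and strand specificity: not given in the sources used here.

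Estimated counts were summed per gene name, with 0.0623% of counts on transcripts without a name left out of the sums, and brought to a common size by TMM factors (computed on rounded sums) from edgeR 4.0.16 under R 4.3.3. Log2 ratios used a pseudocount of 1. A member was counted as higher or lower at 2-fold where its larger value reached 20 scaled counts. With 1 library per group no test was run. The 95% intervals are Clopper-Pearson limits of a conditional binomial on rounded counts, so they cover counting error only. The reads carry no stated molecular identifiers, so copies made by PCR count separately. The ratio and interval calculations were tested on simulated data. The floor for 0 counts was 3. Own sequence is the share of 31-base words found in no other gene among the GENCODE release 29 transcripts that the authors counted. Models of that release matched all 100 member transcripts. A polyadenylation signal was counted 10 to 40 bases from a model's end. Alternatives covered scaling, the minimum, the pseudocount, shared sequence and biotype, with DESeq2 1.42.0 for size factors. Python 3.11.15, numpy 2.4.6, pandas 2.3.3, scipy 1.17.1 and matplotlib 3.10.9 were used.

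Members and lists were chosen with earlier results of these data known. Named genes were the 3 most abundant of each class, the 3 highest and 3 lowest ratios per treatment among members with 100 scaled counts, every member past 2-fold, the members known to form polyadenylated mRNA, and of other lists the extremes plus a fixed set (SLBP, NPAT, PCNA, CCNE2, H2AFZ, H2AFX, H3F3A, H3F3B, H1F0).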

Additional observations from a re-analysis of the deposited data

Results flagged for a closer look

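A comparison with luteinizing hormone (LH) stands in the authors' deposited table, and no LH library was analysed here. Of the 100 member transcripts, 12 have an adjusted p below 0.05 with LH in the authors' deposited table, where 2.74% of all transcripts do. The authors' median log2 fold change over the 35 member transcripts with 20 scaled counts is 2.57. The median over all transcripts with LH was not computed, so a shift of all transcripts cannot be told apart. HIST2H2AA4 is at 4.18, HIST1H2BK at 3.54, HIST1H1C at 3.16 and HIST2H2BE at 2.57 in the authors' deposited table, while HIST1H3E-202 is at 0.33.

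HIST2H2BC, an H2B pseudogene outside the protein-coding members, had 29.98 scaled counts in control, 53.97 with FSH, 51.3 with FSK, 37.2 with SC79 and 62.2 with PMA. Its counts were above control by 1.80-fold with FSH, 1.71-fold with FSK and 2.08-fold with PMA, with each counting interval above 1. HIST2H2BD, another H2B pseudogene, differed in the other direction, with 25.1 scaled counts in control, 0 with FSH, 8.28 with FSK, 14.7 with SC79 and 26.8 with PMA. Its FSK ratio was 0.33 [0.13 to 0.76], and with FSH the upper limit of the ratio was 0.16.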

How the results depend on the processing

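Over 19 results and 10 alternative settings, 190 values were recomputed: 166 lay close to the reported value (counts within 1.5 times, ratios and medians within their interval) and 24 did not. Of these values, 2 summed ratios fell on the other side of 1 and 6 median log2 ratios, all near 0 in the report (FSH, SC79 and PMA against FSK), on the other side of 0, the farthest being -0.22 for SC79 on the authors' normalized values. The summed ratio with SC79, 1.07, was 0.886 on the authors' normalized values and 0.996 over members with at least 80% own words. On the authors' normalized values the sums were 1.02 with FSH, 2.17 with FSK and 2.08 with PMA, and 1 member was past 2-fold lower with SC79. Those values are the counts times 1 constant per library, so all ratios of a library to control moved by a common factor before the pseudocount. Over members with 80% own words, 9 were past 2-fold higher with FSK and the PMA sum was 2.32. With a minimum of 100 scaled counts, 9 members were past 2-fold higher with FSK, 7 with PMA and 0 with FSH, 0 were lower with FSK, and the sums were 2.64 with FSK and 2.65 with PMA. With no minimum, the members past 2-fold higher numbered 8 of 50 (FSH), 25 of 52 (FSK), 8 of 53 (SC79) and 20 of 53 (PMA). Those lower numbered 4, 6, 6 and 4. Shares of all genes with a minimum of 100 or none were not computed. With 20 scaled counts required in control, 0 were higher with FSH and 10 with FSK. The minimum sets how many members are compared.

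No paired analysis was possible because each group is 1 library, so no replicate number is shared and none can be left out. Between 48 and 55 members had a count in a library, and a member listed at 0 can be below 3 counts. The settings with 20 scaled counts in control and with near-identical copies summed, and all settings of the comparisons between treatments, were chosen after seeing the data.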
